A study of Mus musculus with 56 samples.

Results

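The mRNAs of 10 proteins that the liver secretes or is known to use as growth and metabolic signals were followed in the livers of P446L mice. The genes were Fgf21, Fgf1, Gdf15, Inhbe, Inhba, Ahsg, Fetub, Selenop, Lect2 and Igf1, chosen by name from 52230 genes with summed reads, and all 10 passed the filter on low counts. In these mice Gckr encodes glucokinase regulatory protein (GKRP) with a proline (P) or a leucine (L) at position 446, and GKRP holds glucokinase in the hepatocyte nucleus. The groups were 446PP (PP), 446PL (PL) and 446LL (LL) males of the GCKR-P446L-EMI-B6N line. All had been fed HFHSD over 20 weeks, which was pellets with 45% of energy as fat beside drinking water with glucose (10%) and fructose (5%). They had either no further treatment (n = 10, 8 and 10) or a glucokinase activator (GKA, 3 mg/kg, n = 10, 8 and 10). The variant is in the germline of this line, so it is carried by every tissue and not by the liver alone, and there was no group on a regular diet among these 56 livers. The labels give no age, litter, harvest time or batch. PP mouse 7 was left out of the comparisons, which leaves 9 PP livers and 55 in all.

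Hepatokines are proteins that the liver releases into blood and that act on other tissues. FGF21 signals to fat and brain through FGF receptors with the co-receptor beta-Klotho, and GDF15 signals to the hindbrain, and the mRNAs of both are known to be induced in liver by nutrient stress and by the integrated stress response. Inhbe encodes the beta-E subunit of activin E, a liver product that restrains lipolysis in fat, whereas fetuin-A (Ahsg), fetuin-B (Fetub), selenoprotein P (Selenop), LECT2 and IGF-I (Igf1) are made by hepatocytes at high level under basal conditions.

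Total reads were between 5189852 and 8093368 per liver. The hepatocyte markers Alb, Ttr, Apoa1, Apob, Cps1, Serpina1c and Hnf4a summed to between 78600 and 130000 CPM (read counts scaled to a common library size, with TMM factors) in the 55 livers, and 6 muscle markers to at most 0.229 CPM. Macrophage markers summed to between 80.1 and 567 CPM and overlapped among all groups. In whole liver, fewer cells of a type and less RNA per cell cannot be told apart. The genotype itself could not be checked from read counts per transcript.

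The 10 genes spanned a wide range of expression. Per length, as the deposited TPM, Ahsg (3640 TPM, mean over 55 livers) and Selenop (3020 TPM) ranked 43 and 50 among all genes, followed by Igf1 (307 TPM), Lect2 (126 TPM) and Fetub (122 TPM). Fgf1 (14.9 TPM), Inhbe (8.23 TPM), Fgf21 (4.34 TPM), Gdf15 (3.13 TPM) and Inhba (0.447 TPM) were far lower. The level of Inhbe per length depends on the annotation, because Inhbe-201, its sole transcript in the files, is 5319 bases long. Expressed as reads, Inhbe and Fgf1 had the most of the low genes. Their medians were 426 reads per liver (range 211 to 867) and 295 (range 151 to 452). Fgf21, Gdf15 and Inhba had medians of 19, 31 and 20 reads.

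Promoter sequences are shown for Fgf21 and Inhbe, because both had the same 8-base element and their mRNAs rose and fell together over the livers. The element is the core of the ATF4-type response element (TGATGNAA, searched on both strands), the DNA site of the integrated stress response. It was found in the 250 bases before the RefSeq start of both genes, in each as TTGCATCA, which is the element read on the other strand. Among 32851 promoters of the same length, 3.45% held it. In the Fgf21 promoter (chr7:45264915-45265164, GRCm39, minus strand, written 5′ to 3′) the capitals mark this element, a palindromic E-box (CACGTG, in 6.02% of promoters) and a TATA box (TATAAA, in 12.4%).
Fgf21 promoter: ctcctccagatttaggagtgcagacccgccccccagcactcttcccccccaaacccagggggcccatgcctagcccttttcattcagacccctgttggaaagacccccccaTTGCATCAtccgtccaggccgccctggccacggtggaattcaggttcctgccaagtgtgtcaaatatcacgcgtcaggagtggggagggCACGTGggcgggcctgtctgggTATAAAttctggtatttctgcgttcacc
Fgf21 element: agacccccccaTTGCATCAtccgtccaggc
Inhbe element: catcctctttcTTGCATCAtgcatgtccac
The windows of 30 bases lie at chr7:45265035-45265064 and chr10:127187880-127187909 (GRCm39, both on the minus strand), and the element begins at -139 from the start of Fgf21 and at -181 from that of Inhbe. The Inhbe window falls inside the longer first exon that GENCODE gives this gene. The sequences are from the RefSeq promoter table (GRCm38.p6) and matched GRCm39 exactly. No such core was found in the promoters of Gdf15, Igf1, Inhba, Lect2, Selenop, Ahsg or Fetub, which says only that these letters are not in those windows. The promoter of Fgf1 was not searched.

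**Figure D1:**
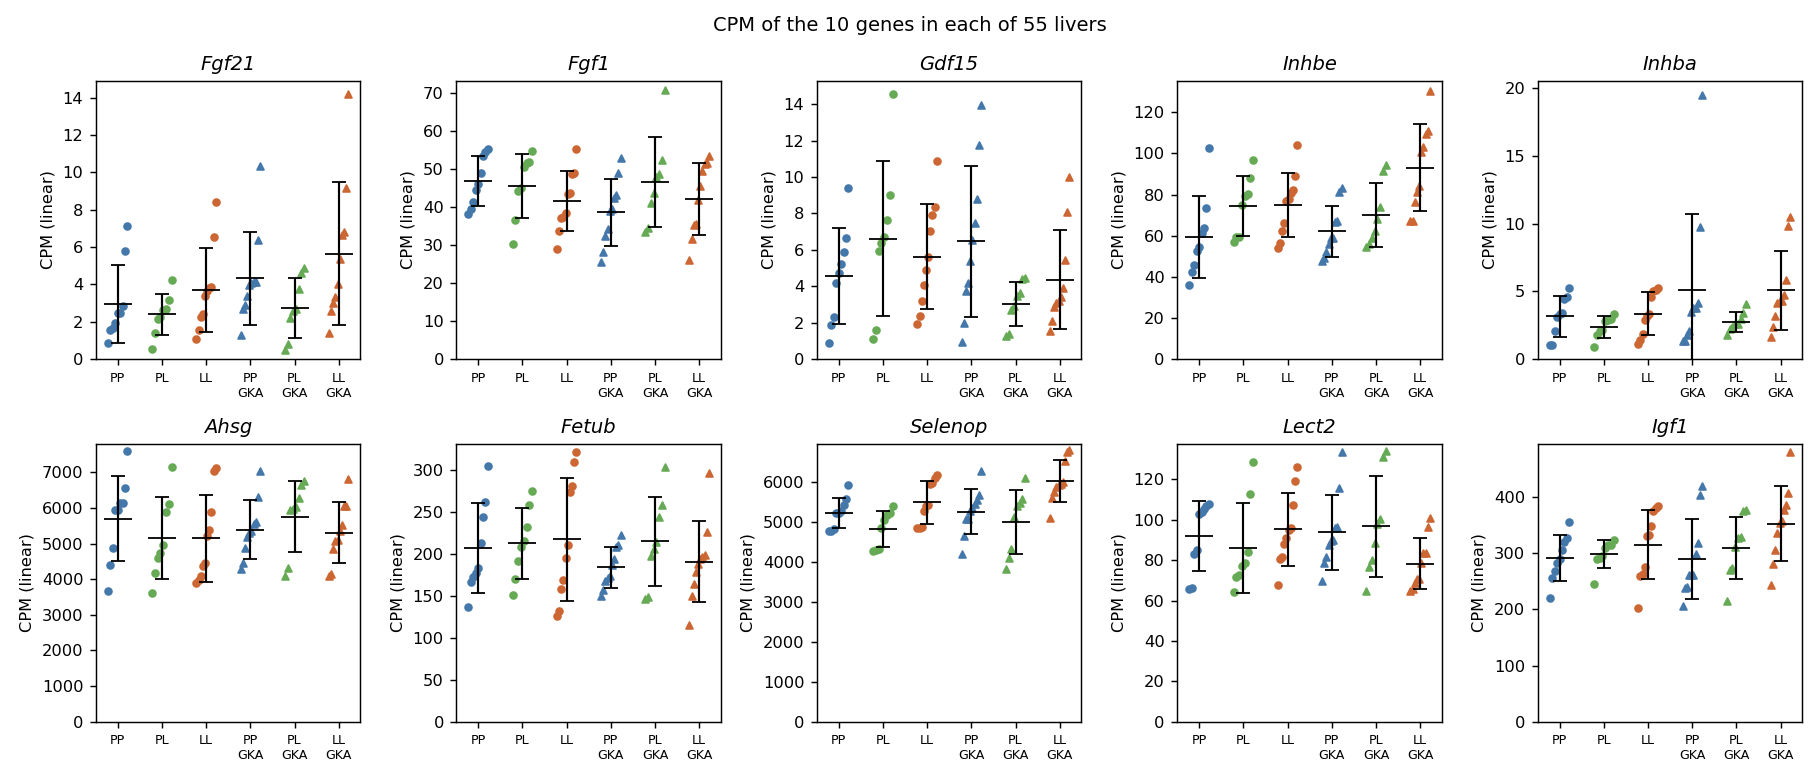
Normalised read counts (CPM, linear axes from 0) of the 10 genes by group, with a point per liver (circles without GKA, triangles with GKA) and the mean ± SD, with the lower SD bar of Inhba in PP with GKA ending at the axis (9 PP, 8 PL, 10 LL, 10 PP GKA, 8 PL GKA, 10 LL GKA). Mean Inhbe is 59.1 CPM in PP, 74.4 in PL and 74.9 in LL, and with GKA 62.1, 69.9 and 93.1 CPM. Fgf21, Gdf15 and Inhba are scattered widely within every group.

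Inhbe rose with the dose of the 446L allele when both arms were fitted together, while in the arm without GKA the PL and LL means were 74.4 and 74.9 CPM. In PP livers it was lowest at 36.1 CPM, with a median of 54.6 and a highest value of 103 CPM, in PL between 57.1 and 96.8 CPM (median 77.2) and in LL between 53.9 and 104 CPM (median 77.4). With GKA it was between 47.8 and 83.1 CPM in PP (median 58.9), between 54.4 and 94.3 CPM in PL (median 65.2) and between 67.0 and 131 CPM in LL (median 92.2). The genotypes overlapped in both arms, but all 10 LL livers with GKA were above the mean of PP with GKA. Over both arms the mean was 60.7 ± 16.0 CPM in 19 PP livers (SD), 72.2 ± 14.8 CPM in 16 PL livers and 84.0 ± 20.3 CPM in 20 LL livers. The fitted slope was 0.23 per 446L allele on the log2 scale (SE 0.0527), 1.18-fold (edgeR quasi-likelihood test with GKA as a covariate, p = 4.67e-05, adjusted p = 0.00564).

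Among the 10 genes, Inhbe alone passed the adjusted threshold in the fit of allele dose, where 3.53% of 11477 genes tested were called and 1.5% were called higher. It ranked 95 by p. Leaving out each of the 55 livers in turn kept the call in all 55 fits, with adjusted p values between 0.000599 and 0.0117. With a component of 17 clock genes as a covariate the estimate was 0.21 and the adjusted p 0.0554, so that the call was lost. The group means of this component were -0.619 (PP), 0.576 (PL) and 0.501 (LL), and with GKA -0.90, 0.57 and 0.039, and its Pearson r with Inhbe was 0.298 over 55 livers. Its part in the result was not tested. The summed hepatocyte markers had an r of -0.398 with Inhbe, and their medians were 112000 CPM in PP, 99300 in PL and 102000 in LL, with overlapping ranges.

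In comparisons of genotype pairs no call was made for Inhbe. Between LL and PP with GKA Inhbe had a log2 fold change of 0.59 (SE 0.129, 1.51-fold, edgeR adjusted p = 0.0514), in a comparison where 0.239% of 10460 genes were called. This value lay at the border of the threshold: DESeq2 gave an adjusted p of 0.00471, the fit of all 6 groups 0.0417 and the fit with transcript lengths 0.369. Leaving out PP mouse 13, 18 or 20 or LL mouse 50 or 53 with GKA made the call, with the lowest adjusted p at 0.0291. Without GKA it was 0.34 for LL against PP (SE 0.165, edgeR adjusted p = 0.433) and for PL against PP 0.33 (SE 0.175, edgeR adjusted p = 0.558), and with the clock component as a covariate the first of these was 0.21 (edgeR p = 0.331). Between LL and PL it was -0.0026 without GKA (SE 0.133, edgeR p = 0.985) and 0.42 with GKA (SE 0.146, edgeR p = 0.0102, adjusted p = 0.444). Fitted within the 28 livers with GKA alone, the allele dose gave 0.29 per allele (edgeR adjusted p = 0.0451), and within the 27 livers without GKA 0.17 per allele, which was not called (edgeR p = 0.0465, adjusted p = 0.385). The difference between these slopes was not tested. Over PP and LL livers alone, the interaction of GKA with LL genotype was 0.26 (SE 0.214, edgeR adjusted p = 0.959). Over PP and PL livers alone, the interaction of GKA with PL genotype was -0.16 (SE 0.226, edgeR p = 0.485).

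Inhbe was the one gene called in its family. Of 17 listed genes of activins, inhibins, their receptors and inhibitors, 13 were tested for allele dose, with a median over the list of -0.02 per allele beside 0.00 over all genes. Inhbc, the neighbouring gene for the beta-C subunit, which hepatocytes also express, was 39.8 ± 7.2 CPM in PP, 35.5 ± 6.79 in PL and 36.1 ± 6.91 in LL, with -0.08 per allele (edgeR p = 0.0951). Smad7 (-0.17 per allele, edgeR p = 0.0402) and Smad2 (-0.10, edgeR p = 0.0301), which act below the activin receptors, did not pass the adjusted threshold. The gene Gm66251, on the other strand, shares 204 exon bases with Inhbe, and the sources do not say whether reads were counted by strand.

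Inhba, the beta-A subunit of activin A, was at the limit of measurement. It had 6 to 33 reads in PP, 8 to 22 in PL and 6 to 39 in LL. With GKA it had 7 to 138 reads in PP, 11 to 26 in PL and 11 to 62 in LL. The 2 highest values of all livers in CPM were 19.5 (PP mouse 19 with GKA, 138 reads) and 10.49 (LL mouse 49 with GKA, 62 reads). PP mouse 18 with GKA had 9.72 CPM and 82 reads. GKA over all genotypes gave a log2 fold change of 0.54 (SE 0.222, edgeR p = 0.0187, adjusted p = 0.84), and without PP mice 18 and 19 it was 0.23 (edgeR p = 0.216). The r of Inhba with the clock component was -0.564, the largest in size among the 10 genes, and with the component as a covariate the log2 fold change by GKA was 0.25 (edgeR p = 0.153). By allele dose Inhba gave 0.01 (edgeR adjusted p = 0.985), and with the component as a covariate 0.44 (edgeR adjusted p = 0.0246), a call that the fit without it does not make. Without PP mice 18 and 19 with GKA it was 0.26 (edgeR p = 0.0256, adjusted p = 0.261).

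Fgf21 was scattered widely within every group. It was between 0.879 and 7.14 CPM in PP (median 2.45), between 0.544 and 4.26 in PL (median 2.46) and between 1.10 and 8.41 in LL (median 3.53). Under GKA Fgf21 was between 1.27 and 10.4 CPM in PP (median 4.02), between 0.482 and 4.85 in PL (median 2.62) and between 1.38 and 14.2 in LL (median 4.70). All groups overlapped. The spread of log2 CPM within groups (SD 0.836) was at percentile 93.8 of all genes past the filter. By GKA over all genotypes Fgf21 had a log2 fold change of 0.47 (SE 0.225, edgeR p = 0.0424, adjusted p = 0.928), and 5.28% of 11477 genes had an unadjusted p under 0.05 there, while none was called. By LL genotype without GKA it was 0.31 (SE 0.375, edgeR adjusted p = 0.799). PP mouse 7, which is not in these values, had 117 Fgf21 reads, the highest CPM (14.6) of all 56 livers, and with it the log2 fold change was -0.17 between LL and PP and 0.29 by GKA over all genotypes (edgeR p = 0.234).

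No receptor through which FGF21 and FGF1 signal was called by genotype. Of Fgfr1, Fgfr2, Fgfr3, Fgfr4 and Klb (beta-Klotho), none was called by allele dose and none had an unadjusted p below the threshold. Fgfr4, the main FGF receptor of hepatocytes, was 17.4 ± 3.83 CPM in PP and 15.8 ± 3.58 CPM in LL, and Klb was 14.6 ± 4.07 and 15.7 ± 5.34 CPM.

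Fgf1, a growth factor that acts on fat and liver, depended on how its transcripts were weighed. As reads, it was between 38.3 and 55.3 CPM in PP (median 46.1), between 30.2 and 54.6 in PL (median 47.8) and between 28.9 and 55.2 in LL (median 40.9). Under GKA Fgf1 was between 25.4 and 52.8 CPM in PP, between 33.5 and 70.8 in PL and between 26.1 and 53.3 in LL. The groups overlapped, and Fgf1 had a log2 fold change of -0.18 between LL and PP without GKA (SE 0.112, edgeR adjusted p = 0.574). With the transcript lengths as an offset it was -0.71 (edgeR adjusted p = 0.122), and DESeq2 with the same offset called it (-0.71, adjusted p = 0.00489), whereas DESeq2 without the offset gave -0.18 (adjusted p = 0.62). The study singled out Fgf1 in these livers, so this is no independent evidence of its direction.

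The Fgf1 difference with lengths went with a few reads of a short transcript. Fgf1-201 (3981 bases) held 67.1% of the Fgf1 reads, and Fgf1-206 (346 bases) held 1.16% of the reads but 20.6% of the TPM. Fgf1-206 had at most 11.5 estimated reads in a PP liver and at least 1 read in 6 of 9 PP livers, and at most 4.18 reads, in 2 of 10 livers, in LL. Its mean level was 6.39 ± 6.98 TPM in PP and 0.653 ± 1.39 TPM in LL. Fgf1 as a whole was 17.6 ± 5.07 TPM in PP and 12.1 ± 4.06 TPM in LL, and without Fgf1-206 it was 11.2 ± 5.87 and 11.4 ± 4.17 TPM. With GKA, Fgf1-206 was at 3.40 ± 4.99 TPM in PP and 4.90 ± 7.38 TPM in LL. These transcripts were looked at after the values of Fgf1 were seen, and the part of Fgf1-206 in the fits with lengths was not tested.

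Gdf15 was the most scattered of the 10 genes (SD of log2 CPM within groups 0.912, percentile 94.5). It was between 0.864 and 9.40 CPM in PP (median 4.72), between 1.09 and 14.6 in PL (median 6.53) and between 1.92 and 10.9 in LL (median 5.25). Under GKA Gdf15 was between 0.928 and 14.0 CPM in PP (median 5.95), between 1.25 and 4.46 in PL (median 3.18) and between 1.55 and 9.99 in LL (median 3.28). All 8 PL livers with GKA were below the mean of PL without GKA. The log2 fold change by GKA in PL was -1.13 (SE 0.400, edgeR p = 0.011, adjusted p = 0.999), in a comparison where 3.18% of 10399 genes had an unadjusted p under 0.05 and none was called. The interaction of GKA with PL genotype was -1.63 (SE 0.611, edgeR p = 0.0118, adjusted p = 1.0). Against PP with GKA the PL livers gave -1.09 (SE 0.399, edgeR p = 0.013, adjusted p = 0.424). In that comparison 7 stellate and fibroblast markers were tested, all 7 were below 0, with a median of -0.33, 5 had an unadjusted p under 0.05 and none was called, and their part in the Gdf15 difference was not tested. By allele dose Gdf15 gave -0.09 (SE 0.143, edgeR adjusted p = 0.848).

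Among targets of the integrated stress response, the genes called were lower with the 446L allele. Of 20 listed targets 16 were tested by allele dose, and Ddit3 and Ddit4 were called, both lower. Ddit3, which encodes CHOP, was 7.08 ± 2.19 CPM in PP, 3.82 ± 0.960 in PL and 3.80 ± 1.31 in LL, and with GKA 4.16 ± 1.26, 3.52 ± 0.906 and 3.04 ± 0.639 CPM. It fell by 0.34 per allele on the log2 scale (SE 0.0685, edgeR adjusted p = 0.00142), and Ddit4, an inhibitor of mTORC1, fell by 0.33 (SE 0.0938, edgeR adjusted p = 0.0328). Over the list 7 of 16 values were above 0 and the median was -0.07. At an unadjusted p under 0.05 there were 1 higher and 4 lower. Of all genes 3.53% were called by allele dose and 15.5% had such a p. Cebpb (-0.26) and Atf5 (-0.11) did not pass (edgeR adjusted p = 0.0601 and 0.0813). Calls of list genes by allele dose, here and below, come from the fit with GKA as the covariate alone. Whether they hold with the clock component or with transcript lengths was not tested.

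Hepatokines are known to be regulated through genes of glucose and fatty acid sensing. By allele dose the listed ChREBP targets moved in both directions, while most listed PPAR-alpha targets were above 0. Of 18 listed ChREBP targets 4 were called higher and 2 lower by allele dose. Over the whole list 6 of 18 values were above 0, the median was -0.09 per allele beside 0.00 over all genes, and at an unadjusted p under 0.05 there were 5 higher and 7 lower. Txnip rose by 0.65 per allele (edgeR adjusted p = 2.1e-05), Slc2a2, the glucose transporter GLUT2, by 0.15 (edgeR adjusted p = 0.00116) and G6pc1, the catalytic subunit of glucose-6-phosphatase, by 0.50 (edgeR adjusted p = 0.00205), while Acly, of citrate cleavage, fell by 0.49 (edgeR adjusted p = 0.00861). The G6pc1 means were not graded by dose without GKA, at 213 ± 102 CPM in PP, 149 ± 46.5 in PL and 401 ± 116 in LL. With GKA they were 223 ± 143, 231 ± 133 and 469 ± 166 CPM. Of 18 listed PPAR-alpha targets, the list that holds Fgf21, 2 were called, both higher, namely Cpt1a (0.16, edgeR adjusted p = 0.0129), which admits fatty acids to mitochondria, and Creb3l3 (0.10, edgeR adjusted p = 0.0371), a liver transcription factor known to induce Fgf21. Over the PPAR-alpha list 15 of 18 values were above 0, with a median of 0.09 per allele. At an unadjusted p under 0.05 there were 4 higher and 0 lower. Fgf21 itself gave 0.18 (SE 0.134, edgeR adjusted p = 0.57), with the clock component as a covariate 0.34 (edgeR p = 0.0191, adjusted p = 0.265), and with PP mouse 7 kept 0.06.

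**Figure D2:**
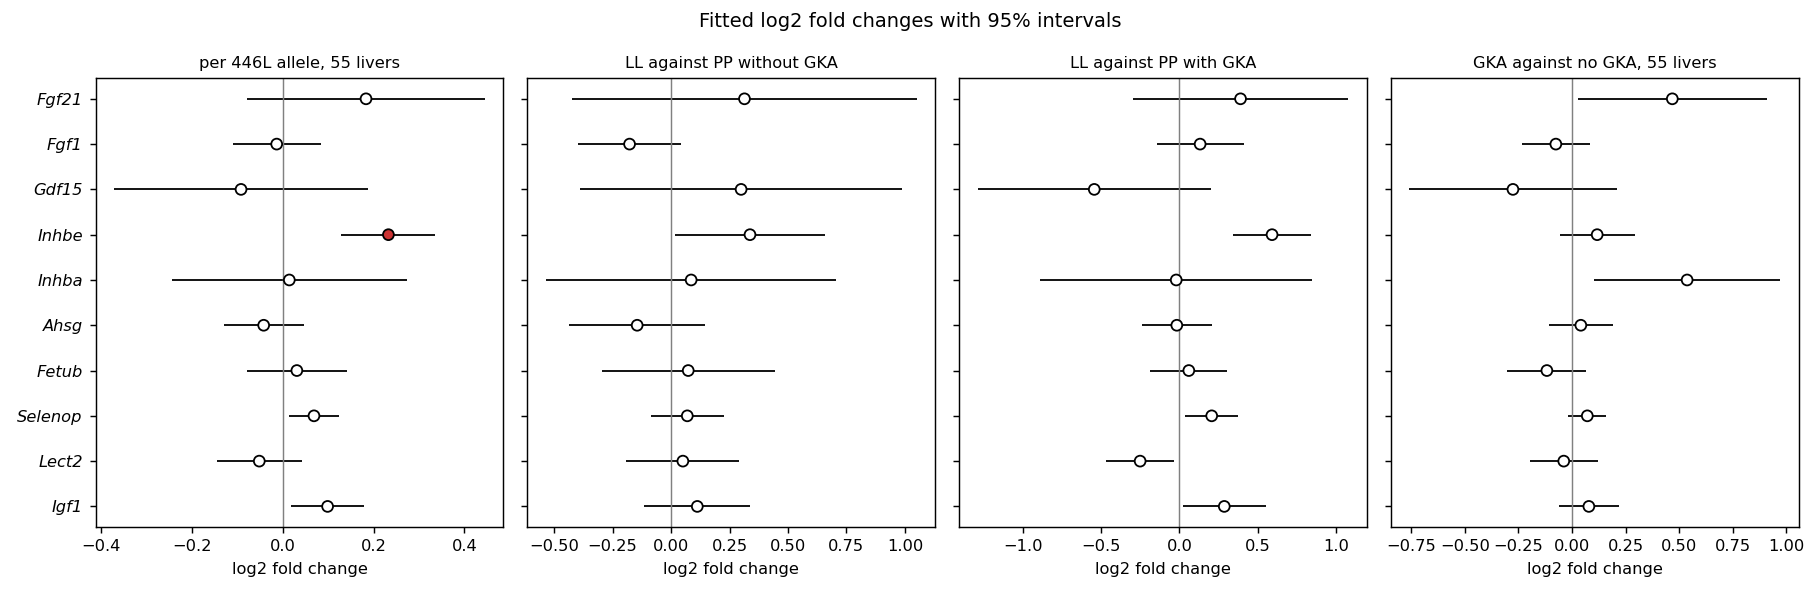
Fitted log2 fold changes of the 10 genes with 95% normal intervals from the SE, per 446L allele, by LL genotype without and with GKA, and by GKA over all genotypes. The filled point, Inhbe per allele at 0.23, is the single call, and the intervals of Fgf21, Gdf15 and Inhba are the widest.

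**Figure D3:**
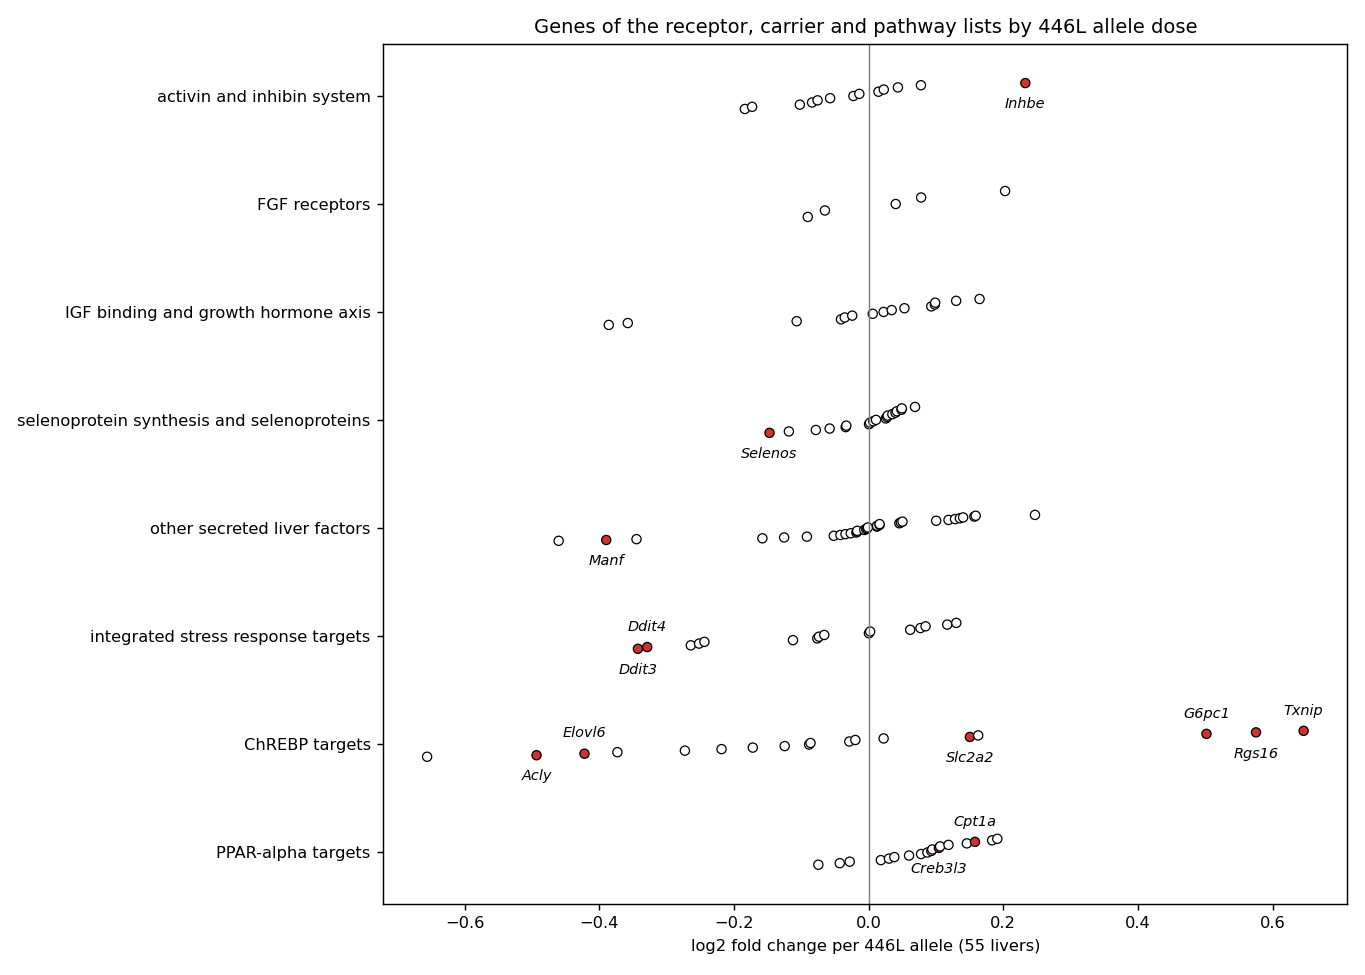
Log2 fold change per 446L allele (x axis) of each tested gene of 8 lists (rows), with genes past an adjusted p of 0.05 filled and named. Inhbe is the called gene of its list, Ddit3 and Ddit4 lie below 0, and the ChREBP targets split into 4 called genes above 0 and 2 below.

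Of the abundant plasma proteins, Selenop was the steadiest, and Ahsg and Fetub were called in no comparison. Ahsg, an inhibitor of insulin receptor signalling and of calcification, was between 3655 and 7602 CPM in PP (median 5949), between 3604 and 7143 in PL (median 4841) and between 3894 and 7128 in LL (median 4840.0). The range under GKA was between 4276 and 7035 CPM in PP, between 4103 and 6770.0 in PL and between 4095 and 6803 in LL. By allele dose it gave -0.04 (95% interval -0.13 to 0.05, edgeR adjusted p = 0.756). Fetub, a protease inhibitor of the same family, was between 137 and 305 CPM in PP, 151 and 274 in PL and 126 and 321 in LL, and with GKA 150 and 222, 146 and 303, and 115 and 296 CPM. It gave 0.03 per allele (95% interval -0.08 to 0.14, edgeR adjusted p = 0.872). Groups overlapped for both genes.

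Selenop, the selenium carrier of plasma, had the smallest spread of the 10 genes (SD of log2 CPM within groups 0.155, percentile 4.57). It was between 4778 and 5918 CPM in PP (median 5238), between 4285 and 5396 in PL (median 4948) and between 4849 and 6185 in LL (median 5419). With GKA it was between 4211 and 6272 CPM in PP (median 5317), between 3831 and 6100.0 in PL (median 5270.0) and between 5093 and 6813 in LL (median 5934). In the arm with GKA, 9 of 10 LL livers were above the PP mean and all 10 above the PL mean, with log2 fold changes of 0.21 (SE 0.0864, edgeR p = 0.0259, adjusted p = 0.398) and 0.28 (SE 0.107, edgeR p = 0.0175, adjusted p = 0.469). By allele dose it was 0.07 (SE 0.0286, edgeR p = 0.0192, adjusted p = 0.199), where 15.5% of all genes had an unadjusted p under 0.05. With transcript lengths the allele dose gave 0.03 (edgeR p = 0.678) and LL against PL with GKA 0.11 (edgeR p = 0.57), and in livers without GKA alone the allele dose gave 0.04 (edgeR p = 0.348). Of 7 stellate and fibroblast markers tested between LL and PL with GKA, all 7 were above 0, with a median of 0.45, 1 had an unadjusted p under 0.05 and none was called, and their part in the Selenop difference was not tested. Of 19 genes of selenoproteins and their synthesis, Selenos, of protein disposal at the endoplasmic reticulum, was the sole call, with a fall by 0.15 per allele (edgeR adjusted p = 0.0388). Selenop shares 1193 exon bases with Ccdc152 on the other strand.

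Lect2, a chemotactic factor that impairs insulin signalling in muscle, was between 65.8 and 108 CPM in PP (median 103), between 64.5 and 129 in PL (median 77.8) and between 67.8 and 126 in LL (median 93.0). With GKA it was between 69.9 and 134 CPM in PP (median 89.7), between 65.0 and 134 in PL (median 93.2) and between 64.6 and 101 in LL (median 74.8). LL livers with GKA had the lowest median, with 8 of 10 below the mean of PP with GKA. The log2 fold change was -0.25 against PP with GKA (SE 0.110, edgeR adjusted p = 0.424), -0.29 against PL with GKA (SE 0.131, edgeR adjusted p = 0.555) and -0.27 against LL without GKA (SE 0.109, edgeR adjusted p = 0.783). The last of these was -0.52 with transcript lengths (edgeR p = 0.0132, adjusted p = 0.697) and -0.16 with the clock component as a covariate (edgeR p = 0.105). These comparisons share the 10 LL livers with GKA, and 4 of the 10 genes had an unadjusted p under 0.05 by LL genotype with GKA, where 10.4% of all genes had one.

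Igf1, the growth factor that the liver makes in response to growth hormone, was between 221 and 355 CPM in PP (median 291), between 245 and 324 in PL (median 302) and between 203 and 384 in LL (median 332). Under GKA Igf1 was between 205 and 419 CPM in PP (median 261), between 215 and 376 in PL (median 319) and between 243 and 481 in LL (median 356). It gave 0.10 per allele (SE 0.0414, edgeR p = 0.0203, adjusted p = 0.204) and 0.29 by LL genotype with GKA (SE 0.135, edgeR adjusted p = 0.472). With transcript lengths these values were 0.01 (edgeR p = 0.845) and 0.07 (edgeR adjusted p = 0.964), and in livers without GKA alone the allele dose gave 0.06 (edgeR p = 0.279). The mean level per length was 327 ± 118 TPM in PP with GKA and 305 ± 55.8 TPM in LL with GKA.

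The long transcript Igf1-202 (7052 bases) held 48.7% of the Igf1 reads. Its share was 44.6 ± 5.40% in PP, 46.5 ± 4.94% in PL and 49.2 ± 4.39% in LL, and with GKA it was 44.7 ± 6.02% in PP, 48.0 ± 4.79% in PL and 53.8 ± 5.13% in LL. Groups overlapped, with a range of 34.9% to 52.7% in PP with GKA and 45.3% to 61.6% in LL with GKA. These shares were looked at after the gene's values were seen and are given without a test. Of 19 genes of IGF binding and growth hormone signalling, 15 were tested by allele dose and none was called. Igfbp1, an insulin-repressed binding protein, gave -0.39 per allele (SE 0.132, edgeR adjusted p = 0.0933).

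Of 33 other secreted liver factors, 32 were tested by allele dose and Manf alone was called. Manf, a factor released under stress of the endoplasmic reticulum, was 100.3 ± 37.0 CPM in PP, 60.4 ± 16.7 in PL and 54.5 ± 18.2 in LL. It fell by 0.39 per allele (SE 0.0776, edgeR adjusted p = 0.00142). Angptl8 (0.25, edgeR adjusted p = 0.167) and Tsku (-0.34, edgeR adjusted p = 0.0693) did not pass.

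**Figure D4:**
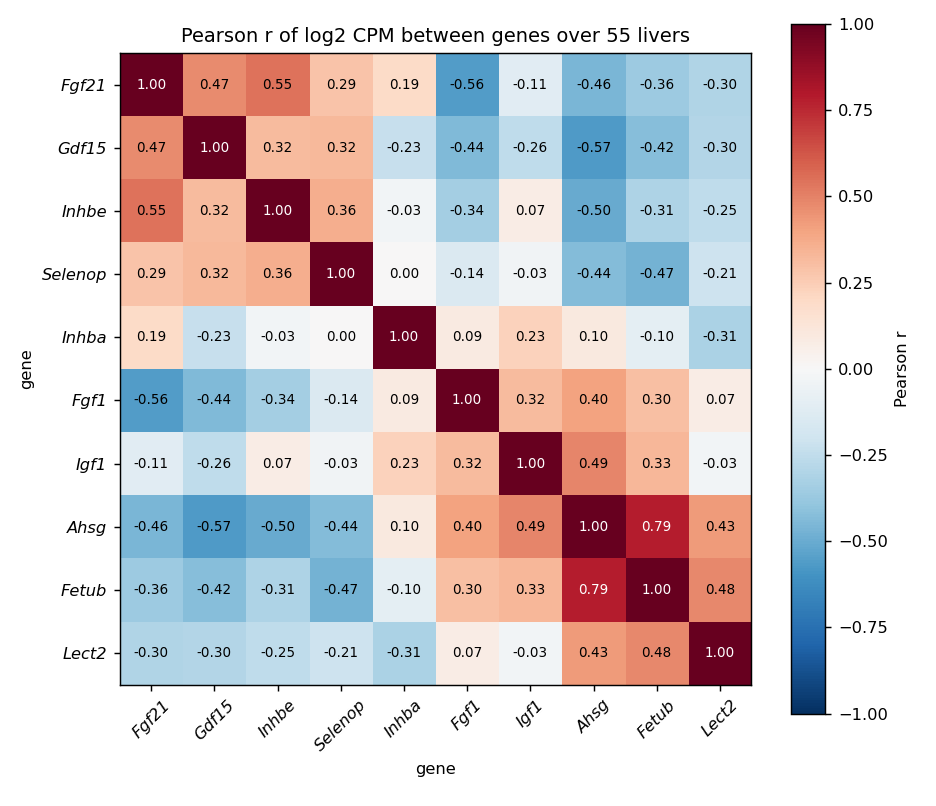
Pearson r of log2 CPM over 55 livers for every pair of the 10 genes, from -1 (blue) to 1 (red). Fgf21, Gdf15, Inhbe and Selenop are positive among themselves, Ahsg, Fetub and Lect2 likewise, and the blocks between these sets are negative.

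Between livers, several of the 10 genes fell into opposed sets. Of 45 pairs, 19 passed an adjusted p of 0.05 by both Pearson r and Spearman rho (permutation tests with 100000 resamples, adjusted over the 45 pairs). Ahsg and Fetub, which lie near each other on chromosome 16, rose together (r = 0.785, rho = 0.789, permutation adjusted p = 0.000225 for both, r = 0.77 without the 2 farthest livers). The raw p was 1e-05, the smallest that the resamples can give. Ahsg with Igf1 gave r = 0.492 and rho = 0.496 (permutation adjusted p = 0.00124 and 0.00157; 0.482 without the 2 farthest livers), and Fetub with Lect2 gave r = 0.481 and rho = 0.445 (permutation adjusted p = 0.00124 and 0.0034; 0.42 without those).

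The second set was Fgf21, Gdf15 and Inhbe. Fgf21 with Inhbe gave r = 0.546 and rho = 0.543 (permutation adjusted p = 0.0003 and 0.00045; 0.514 without the 2 farthest livers), and it was positive within each of the 6 groups, with r = 0.581 for values centred on group means. Fgf21 with Gdf15 gave r = 0.469 and rho = 0.458 (permutation adjusted p = 0.00124 and 0.00211; 0.519 without the 2 farthest livers). Gdf15 with Inhbe gave r = 0.316 and rho = 0.287 (permutation adjusted p = 0.0383 and 0.0624), so that rho did not pass. Gdf15 had no TGATGNAA in its promoter windows, and the part of the element in these correlations was not tested.

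Across the sets the r values were negative for Ahsg, Fetub and Lect2, but not all pairs passed. By rho, Lect2 passed with none of Fgf21, Gdf15 and Inhbe (permutation adjusted p = 0.119, 0.0624 and 0.149). Fetub with Inhbe did not pass by rho either (permutation adjusted p = 0.0507). Igf1 gave r = -0.112 with Fgf21, -0.256 with Gdf15 and 0.0716 with Inhbe. Gdf15 with Ahsg gave r = -0.569 and rho = -0.595 (permutation adjusted p = 0.000337 and 0.0003; -0.619 without the 2 farthest livers), and Inhbe with Ahsg gave r = -0.503 and rho = -0.489 (permutation adjusted p = 0.0009 and 0.00157; -0.478 without those). Fgf1 rose with Ahsg (r = 0.401, rho = 0.396, permutation adjusted p = 0.00696 and 0.00846). With Fetub it gave r = 0.297 and rho = 0.244 (permutation adjusted p = 0.0468 and 0.117), and with Lect2 r = 0.0705. Fgf1 was negative with Gdf15 (r = -0.438, rho = -0.36, permutation adjusted p = 0.00356 and 0.0174) and Inhbe (r = -0.342, rho = -0.359, permutation adjusted p = 0.0269 and 0.0174). With Fgf21 it gave r = -0.559 and rho = -0.589 (permutation adjusted p = 0.000225 for both, r = -0.647 without those), and the r was negative in all 6 groups. Selenop was negative with the plasma protein genes, with r = -0.473 and rho = -0.465 against Fetub (permutation adjusted p = 0.0014 and 0.00211; -0.428 without those). All of these values come from the same libraries and share their scaling. The sum of 10 stellate and fibroblast markers had an r of -0.687 with Fetub, -0.561 with Ahsg and 0.515 with Selenop, with sums between 105 and 327 CPM, ranges that overlapped among groups and medians from 135 CPM in PL with GKA to 186 CPM in PP with GKA. Other lists gave negative values too. Summed endothelial markers had an r of -0.557 with Fetub, -0.527 with Lect2, -0.376 with Ahsg and 0.174 with Selenop. Summed macrophage markers had -0.489 with Fetub, -0.489 with Lect2, -0.298 with Ahsg and -0.009 with Selenop. The part of these sums in the correlations was not tested.

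The genes whose log2 CPM was most like that of each gene over the 55 livers were, for Fgf21, Gsr (r = 0.612), Pdk4 (0.60) and Ly6d (0.583). For Gdf15 they were Depp1 (0.758), Hycc1 (0.577) and Ephx1 (0.574), and for Inhbe Tlr12 (0.705), Paqr7 (0.684) and Slc25a47 (0.663). Fetub was closest to the coagulation and plasma protein genes Vtn (0.879), F10 (0.874) and F7 (0.866), and Ahsg to Ang (0.869), Serpina1a (0.86) and Pla1a (0.857). Selenop was closest to Vnn1 (0.816), Slc16a7 (0.777) and Hexa (0.772), Lect2 to Agmat (0.83), Acaa2 (0.814) and Rbp4 (0.807), and Igf1 to Keg1 (0.756), Nox4 (0.725) and Egfr (0.708). For Fgf1 the nearest were N4bp2 (0.749), Met (0.723) and Marchf6 (0.717), and for Inhba St3gal1 (0.658), Slc16a6 (0.637) and Crtc3 (0.63). These are Pearson r values that were picked as the highest of 11477 genes, given as a description.

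Over the 13 comparisons, 130 tests were made for the 10 genes. There was 1 call, and 20 tests had an unadjusted p under 0.05. Depending on the comparison, 3.18% to 15.5% of all genes had such a p, and the comparisons share livers, so the tests are not independent. By LL genotype without GKA none of the 10 genes was called or had such a p, where 0.0854% of 10537 genes were called by edgeR and 11.8% had an unadjusted p under 0.05. The same held by PL genotype without GKA, with a background of 0.151% called and 10.1% unadjusted, and between LL and PL without GKA, with 0.00942% and 4.58%. Between LL and PL with GKA edgeR called none of the genes, 5 of the 10 (Inhba, Inhbe, Selenop, Fgf21 and Lect2) had an unadjusted p under 0.05 beside 8.6% of all genes, and DESeq2 called 37 genes. Fgf21 there was 1.05 higher in LL on the log2 scale (SE 0.417, edgeR adjusted p = 0.50) and Inhba 0.88 (SE 0.301, edgeR adjusted p = 0.416). With the clock component as a covariate these values were 0.54 (edgeR p = 0.187) for Fgf21 and 0.54 (edgeR p = 0.0775) for Inhba. By PL genotype with GKA Gdf15 was the 1 gene of 10 with such a p, beside 8.19% of all genes, and none was called by edgeR and 36 by DESeq2.

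No gene of the 10 was called by GKA, in any genotype or over all, and edgeR called 0.0% of the genes tested. In PP, 3.56% of all genes and 1 of the 10 (Fgf1, -0.28, SE 0.123, edgeR adjusted p = 1.0) had an unadjusted p under 0.05, and in LL 6.15% and 2 of the 10 (Inhbe and Lect2). DESeq2 called 2, 4 and 11 genes by GKA in PP, PL and LL. Over all genotypes 606 genes had an unadjusted p under 0.05 by GKA, and DESeq2 called 3 genes. The interactions of GKA with genotype gave such a p to 5.75% of all genes and 0 of the 10 for LL, and to 3.35% and 1 of the 10 (Gdf15) for PL.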

How the data were processed

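Liver RNA-seq of 56 male mice was quantified by the authors with Salmon 1.4.0 against GENCODE M26 (GRCm39). The authors deposited the estimated counts and the TPM that Salmon gave per transcript, 1 table per mouse, and 0 columns of other samples were present. Estimated counts were summed per gene, with 98.8% of 139225 transcripts matched to genes by GENCODE vM39 and 99.8 to 99.9% of reads kept, and rounded. Differential expression was tested with edgeR 4.0.16 in R 4.3.3 (TMM, filterByExpr, quasi-likelihood F-test, Benjamini-Hochberg). A call needed an adjusted p under 0.05 and a fold of at least 1.3 or at most 0.7, with no fold limit for allele dose (0, 1 or 2 copies of 446L, GKA as covariate) and interactions. PP mouse 7 was left out, as the methods of the study did. CPM used TMM, and log2 CPM a prior count of 2. DESeq2 1.42.0, other scaling, no filter, transcript lengths as offsets, a clock covariate (first component of 17 clock genes, 57.8% of their variance) and leaving out livers were alternatives. Correlations used SciPy 1.17.1. On simulated counts with 1.5-fold changes for LL against PP, 44.7% of 197 changed genes were called, and with 2-fold changes 87.6% of 193. Each library is 1 mouse. The sources used here do not give the strand setting. The genes, lists and tests were chosen with earlier results of these data known. The 10 genes were named in every comparison, with up to 4 genes per list, those with the smallest p, and the 3 genes with the highest r over 55 livers, passing over genes without an established symbol.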

Additional observations from a re-analysis of the deposited data

Results flagged for a closer look

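Igf1 in PL livers had 1 value apart from the others. PL mouse 24 was at 245 CPM (2183 reads), below the next lowest liver of its group at 290.1 CPM and a median of 310 CPM in the others. Its gap to the nearest liver was 0.604 of the range of log2 CPM over 8 livers, above Dixon's 95% value of 0.526. Over the 10 genes and 6 groups, 60 sets of livers were tested in this way and this was the 1 that passed, where chance flags about 1 in 20.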

How the results depend on the processing

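Inhbe kept its direction by allele dose in every alternative fit, and its call was lost with the clock covariate, where Inhba was called instead, and in the livers without GKA, where 0 of the 10 genes was called. The cause was not tested. No allele dose was fitted on TPM. The ratio of mean Inhbe TPM to PP was 1.0 in PL and 1.4 in LL, beside 1.26 and 1.27 by CPM. With GKA these ratios were 1.03 and 1.32 by TPM, beside 1.13 and 1.5 by CPM. The ratio by GKA in PL was 1.26 by TPM and 0.94 by CPM. Counts of calls over all genes moved more. With DESeq2, 109 genes were called by LL and 68 by PL genotype without GKA, 22 between LL and PL, 89 by LL genotype with GKA (1 of the 10, Inhbe), 36 by PL, 37 between LL and PL with GKA, 2, 4 and 11 by GKA in PP, PL and LL, 3 by GKA over all, and 2 and 4 for the interactions with LL and PL. With all 6 groups in 1 fit the counts were 65 by LL genotype and 0 between LL and PL without GKA, 45 (1 of the 10, Inhbe), 21 by PL and 21 between LL and PL with GKA, and 1 by GKA in PP. With transcript lengths they were 2 by LL and 0 by PL genotype, 0 by LL genotype and 2 between LL and PL with GKA, 1 by GKA in LL and 37 by allele dose, and DESeq2 with lengths called 124 by LL genotype without GKA (1 of the 10, Fgf1). With the clock covariate they were 0, 7 and 9 for the genotype pairs without GKA, 12 by LL genotype with GKA and 118 by allele dose (1 of the 10, Inhba). RLE scaling gave 0 and no filter 1 by LL genotype, and no filter 4 by GKA over all. With PP mouse 7 kept they were 26 by LL and 33 by PL genotype, and without PP mice 18 and 19 with GKA 7 by LL genotype with GKA. By allele dose 405 genes were called over all livers, 33 in livers without GKA and 40 in livers with GKA. Whether the list genes called by allele dose kept their calls in the alternative fits was not tested.

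Leaving out 1 liver at a time gave 315 to 533 calls by allele dose, 0 to 85 by LL and 5 to 31 by PL genotype, 1 to 8 between LL and PL, 12 to 47 by LL genotype with GKA (0 to 1 of the 10) and 0 to 1 by GKA in LL. The sign of small values turned for Fgf1 by allele dose (-0.029 to 0.003) and for Inhba (-0.038 to 0.167). It also turned by allele dose for Fgf1 with PP mouse 7 (0.004) and in livers with GKA (0.064), Gdf15 in livers without GKA (0.139), Ahsg with lengths (0.047), Fetub with the clock covariate (-0.037), Lect2 with lengths (0.028) and in livers without GKA (0.027), and Inhba with lengths (-0.003) and in livers with GKA (-0.013). Fgf21 by LL genotype turned with PP mouse 7 kept (-0.174). No paired analysis was possible because the mouse numbers are not shared between groups. Fgf21, Gdf15 and Inhba had few reads (medians of 19, 31 and 20) and a spread within groups at percentiles 92.7 to 94.5, and the part of either in their missing calls was not tested.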

Other observations

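PP mouse 7, which entered no comparison, had the lowest Fetub (108 CPM) and Lect2 (44.4 CPM) of all 56 livers beside the highest Fgf21 (14.6 CPM). Its summed macrophage markers were 391 CPM, and its summed hepatocyte markers 87000 CPM. The summed markers of adipose tissue ranged from 1.56 to 78.9 CPM over the 55 livers and those of blood from 284 to 2950 CPM, with overlap among all groups. By allele dose 4 of 5 blood markers were higher at an unadjusted p under 0.05 and none was called, and the r of the blood sum with Inhbe was 0.052.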
